A study of Mus musculus with 2 samples.

Results

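The genes described here encode the subunits of voltage-gated sodium and calcium channels. They were taken as every protein-coding gene of the GENCODE M21 annotation whose symbol names a sodium channel alpha subunit (Scn, a number, a), a sodium channel beta subunit (Scn, a number, b), or a calcium channel alpha1, alpha2delta, beta or gamma subunit (Cacna1, Cacna2d, Cacnb and Cacng). The rule found 40 genes among 22028 protein-coding genes and 55536 annotated genes. Of these, 10 encode sodium alpha, 4 sodium beta, 10 calcium alpha1, 4 alpha2delta, 4 calcium beta and 8 gamma subunits. The RNA was polyadenylated RNA of whole forebrain, taken from B6NCrl mice at birth (P0, 0 days of age). Pup 3 (replicate 2) and pup 1 (replicate 1) each gave 1 library from a single forebrain and 10 ng of RNA, by oligo-dT priming and Nextera tagmentation, with ERCC spike-in RNAs added. The labels name them as separate pups but give both the same donor identifier, sex was not collected, and no treatment is named. The 2 libraries form 1 group, so levels are given per pup and differences by size alone, with no p-value.

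Voltage-gated sodium channels open when a neuron depolarises and carry the rising phase of the action potential. Each is built around a single large alpha subunit that forms the pore, joined by small beta subunits that span the membrane. Calcium channels are built in the same manner around an alpha1 subunit, with an intracellular beta subunit and an extracellular alpha2delta subunit, and couple depolarisation to transmitter release, gene expression and rhythmic firing. In the developing rodent brain the set of sodium channel subunits and of their spliced forms is known to change around and after birth.

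The libraries held 41230878 expected counts in pup 3 and 40964891 in pup 1, so that, at an effective length of 1000 bases, a single read is worth 0.0340 TPM in pup 3 and 0.0383 in pup 1. TPM, the transcript's share of all transcripts, is corrected for length and is used below wherever genes are compared within a pup. Markers of neurons (5 of 5) and of forebrain (5 of 5) reached a TPM of 1 in each pup, the level called detected below. Of the cerebellum and hindbrain markers 0 of 4 were detected, with Hoxb5 listed at 0 in both pups. The RNA comes from whole tissue, so fewer cells of a type and less RNA per cell cannot be told apart in any level below.

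Of the 40 channel genes, 28 were detected in both pups, against 59.5% of all protein-coding genes. By mean TPM, 18 genes stood at 5 or more, 10 between 1 and 5, and 12 under 1. All 40 had counts in both libraries. The median of the mean TPM was 4.57 over the 40 genes and 3.77 over all protein-coding genes, and the range over the channel genes ran from 0.03 to 110.0 TPM. The highest were not pore-forming subunits: Cacnb3, Scn3b, Cacnb1 and Cacng4 held ranks 1 to 4, and the highest alpha subunit, Scn2a, held rank 5. In CPM, a count scaled to library size and not corrected for length, Scn3b led and Scn2a and Scn3a took ranks 3 and 4.

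**Figure D1:**
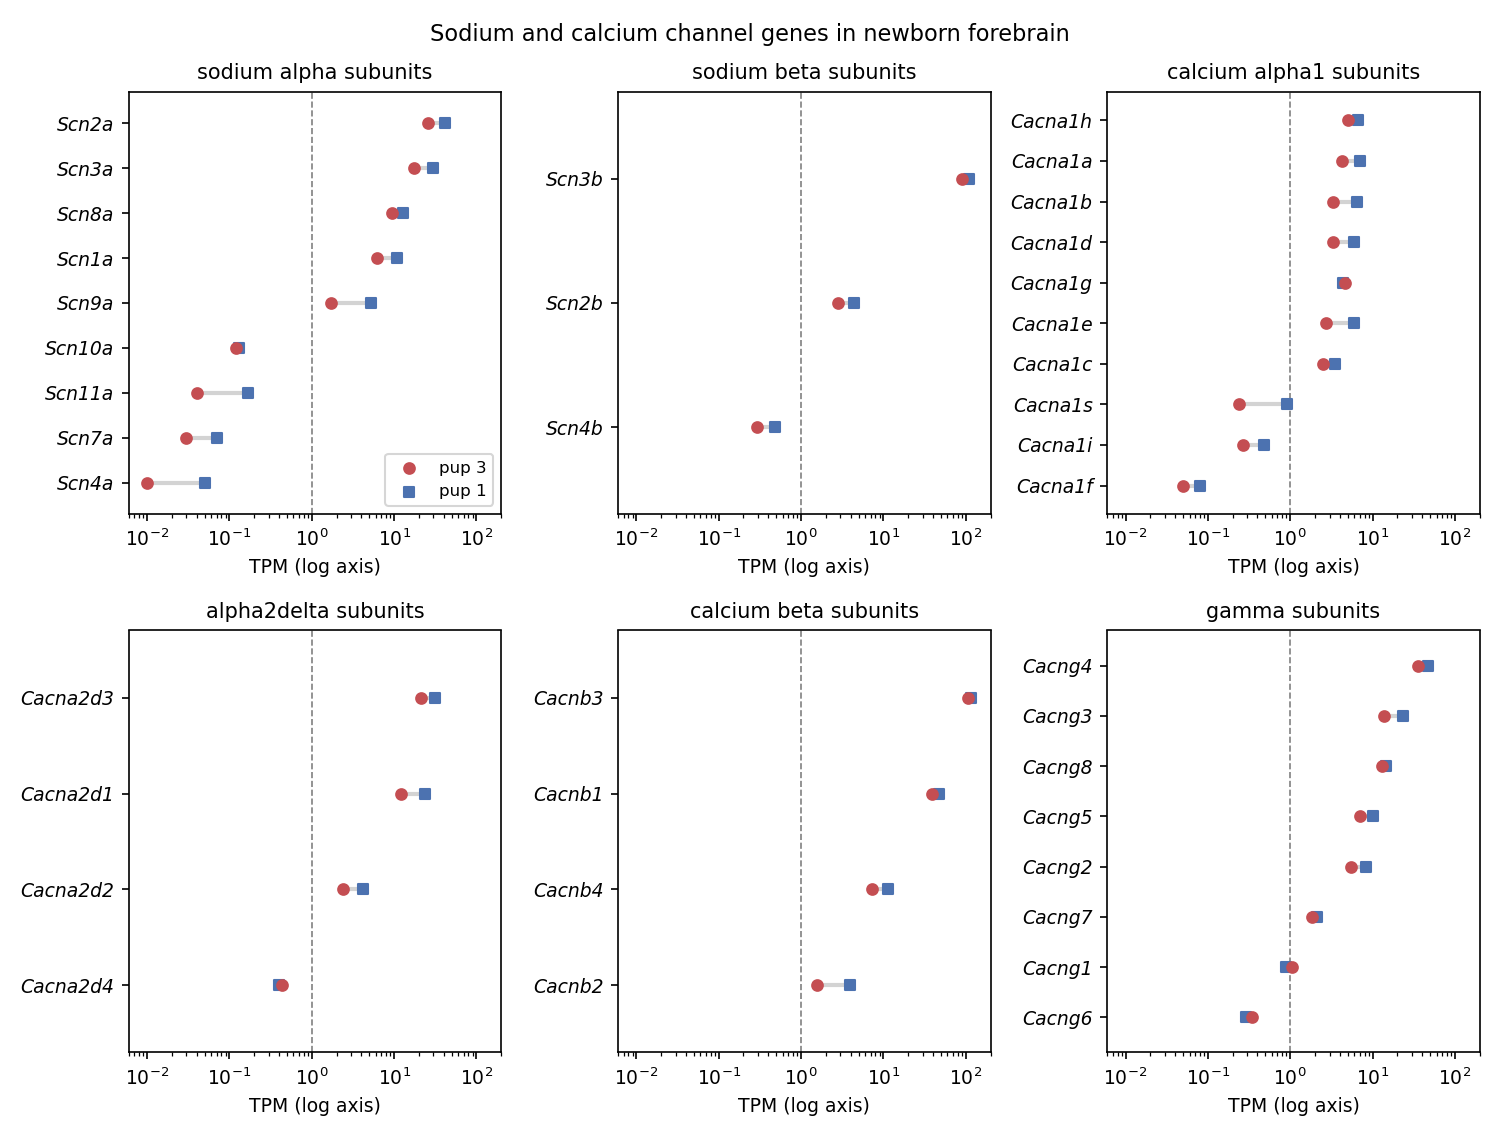
TPM of 38 of the 40 channel genes on a log axis, by subunit class, with a circle for pup 3, a square for pup 1 and a dashed line at a TPM of 1. Cacnb3 and Scn3b lie furthest right, near 110.0 and 100.3 TPM in the mean, and 11 of these genes have a mean under the line.

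Among sodium channel alpha subunits, Scn2a and Scn3a were the most abundant. Scn2a (ENSMUSG00000075318.12, mm10 chr2:65620771-65767447, plus strand), whose channel serves the axons of young excitatory neurons, stood at 25.98 TPM in pup 3, against 41.4 TPM in pup 1 (33.7 ± 10.9, mean ± SD of the 2 pups here and below). Scn3a (ENSMUSG00000057182.14, chr2:65457118-65567627, minus strand), a gene of the embryonic and newborn brain, stood at 17.5 TPM in pup 3, against 29.8 TPM in pup 1 (23.6 ± 8.68). The pair took 71.0% of the summed TPM of the 10 alpha genes in pup 3 and 70.4% in pup 1, while the level of each gene was lower in pup 3.

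Scn8a, the alpha subunit of nodes of Ranvier and axon initial segments in mature neurons, stood at 9.34 TPM in pup 3, against 12.8 TPM in pup 1 (11.1 ± 2.45). Scn1a, which later supports firing of inhibitory interneurons, stood at 6.19 TPM in pup 3, against 10.8 TPM in pup 1 (8.51 ± 3.27). Together these genes of the mature brain took 25.4% of the alpha sum in pup 3 and 23.4% in pup 1, but in the mean 11.5% over full-length coding transcripts alone and 15.5% in expected counts. Within a library, the log2 ratio of Scn2a over Scn1a was 2.05 in pup 3 and 1.93 in pup 1, and that of Scn2a over Scn8a was 1.47 and 1.69 in the same order. Both ratios were positive in each pup and under every alternative tried. The log2 ratio of Scn3a over Scn2a was -0.57 in pup 3 and -0.48 in pup 1, but it reached 0.20 in the mean when full-length coding transcripts alone were summed, so which of these neighbouring genes leads depends on the entries counted.

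The other alpha genes were low. Scn9a, known from peripheral sensory neurons, stood at 1.73 TPM in pup 3, against 5.23 TPM in pup 1, with most of the gap in the retained-intron entry Scn9a-204, which held 0.720 TPM in pup 3, against 3.14 TPM in pup 1. Its full-length coding entries held 0.950 TPM in pup 3, against 1.94 TPM in pup 1. Scn10a and Scn11a, channels of nociceptive neurons, stood at 0.120 and 0.0400 TPM in pup 3, against 0.130 and 0.170 TPM in pup 1. Scn7a, an atypical member that senses extracellular sodium, stood at 0.03 TPM in pup 3, against 0.07 TPM in pup 1. Scn4a, the alpha subunit of skeletal muscle, had 2 counts in pup 3 and 8 counts in pup 1, the lowest of all 40 genes in mean TPM, while Cacna1f was the lowest in CPM. The 5 alpha genes under a TPM of 1 together took 0.849% of the alpha sum in pup 3 and 1.05% in pup 1.

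Scn2a, Scn3a, Scn8a and Scn9a each carry in M21 a pair of alternative coding exons of 92 bases that never occur in the same transcript. The pair encodes part of the voltage sensor of the first repeat of the channel, and in rodents the upstream exon of Scn2a is known as the neonatal and the downstream exon as the adult form. The downstream exons of the 3 genes with the highest levels are shown because they are what a read must tell apart between the genes. They are read from the M21 transcripts, 5′ to 3′ on the strand of the gene, with capitals at the bases that differ from the upstream exon of the same gene. In Scn2a the downstream exon is chr2:65682690-65682781 (mm10, plus strand), and 20 of 92 bases differ. In Scn3a it is chr2:65525695-65525786 (minus strand), and 21 differ. In Scn8a it is chr15:100959603-100959694 (plus strand), and 19 differ.
Scn2a downstream exon: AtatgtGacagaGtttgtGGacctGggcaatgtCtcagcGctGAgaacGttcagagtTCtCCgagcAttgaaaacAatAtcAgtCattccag
Scn3a downstream exon: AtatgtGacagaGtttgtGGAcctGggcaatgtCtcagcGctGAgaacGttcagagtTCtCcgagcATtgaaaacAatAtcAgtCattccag
Scn8a downstream exon: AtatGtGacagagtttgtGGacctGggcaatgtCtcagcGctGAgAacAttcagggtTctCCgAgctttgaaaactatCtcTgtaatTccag

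The downstream exons of Scn2a and Scn3a were identical over all 92 bases, while that of Scn8a differed from them at 7 bases and that of Scn9a at 2. Each of these exons therefore resembled its counterpart in another gene more than its alternative in the same gene. A read that lies wholly inside the downstream exon of Scn2a or Scn3a cannot be assigned to either gene by sequence, and the deposited tables split such reads by estimate.

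The upstream, neonatal exon of Scn2a was held by the full-length transcripts Scn2a-201 and Scn2a-202, at 11.4 TPM in pup 3, against 21.3 TPM in pup 1. The downstream exon was held by the full-length transcript Scn2a-205, listed at 0 TPM in both pups, and by the short entry Scn2a-204 of 1810 bases, at 5.82 TPM in pup 3, against 11.5 TPM in pup 1. The upstream exon thus took 66.2% in pup 3 and 65.0% in pup 1 of the TPM of entries that hold either exon, and the whole downstream part rested on the short entry. A further Scn2a entry, the retained intron Scn2a-209 of 1482 bases, is annotated with neither exon as such and stood at 7.68 TPM in pup 3, against 6.36 TPM in pup 1. In Scn3a the arrangement was the reverse: the downstream exon was in both full-length transcripts, at 13.7 TPM in pup 3, against 23.4 TPM in pup 1, and the upstream exon was annotated only in Scn3a-203, an entry of 365 bases with 3.70 TPM in pup 3, against 6.25 TPM in pup 1. Because M21 gives Scn3a no full-length transcript with the upstream exon, its share of 21.3% in pup 3 and 21.1% in pup 1 describes that short entry and not the full-length RNA.

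In Scn8a both exons occur in full-length transcripts. The downstream exon led there, with 2.07 TPM in pup 3 and 3.54 in pup 1. The upstream exon in full-length entries had 0.230 TPM in pup 3 and 0.3 in pup 1. Counting every entry that holds it, the upstream exon reached 0.900 TPM in pup 3, against 1.87 TPM in pup 1, or 30.3% and 34.6% of the pair. In Scn9a the upstream exon led, at 0.950 TPM in pup 3, against 1.77 TPM in pup 1, with the downstream exon at 0 TPM in pup 3, against 0.170 TPM in pup 1. The lead of the upstream exon in Scn2a and of the downstream exon in Scn8a held in both pups and in posterior mean TPM. In Scn2a, however, the full-length entry with the downstream exon, Scn2a-205, has 6348 bases. Scn2a-201 and Scn2a-202, with the upstream exon, have 8935 and 8690 bases. Reads in sequence that Scn2a-205 lacks cannot be assigned to it, so the Scn2a split describes the entries M21 lists as much as the RNA.

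**Figure D2:**
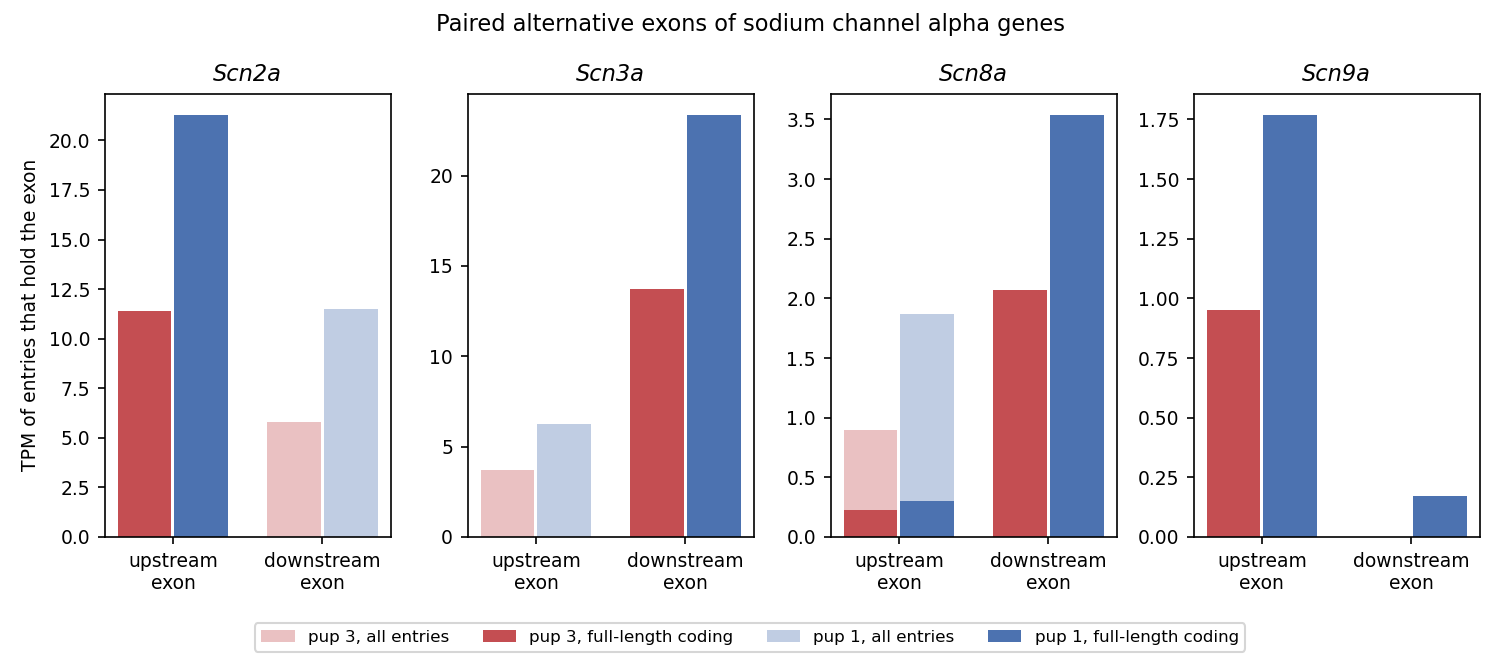
TPM of transcripts that hold the upstream or the downstream exon of the pair, in 4 sodium channel genes, with pup 3 in red left of pup 1 in blue, pale for all entries and dark for full-length coding entries. Full-length entries carry the upstream exon in Scn2a (11.4 and 21.3 TPM) and the downstream exon in Scn3a (13.7 and 23.4 TPM).

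Among the sodium channel beta subunits, which adjust gating and bind other cells, Scn3b was far above the rest. Scn3b (ENSMUSG00000049281.16, chr9:40269217-40291618, plus strand) stood at 90.3 TPM in pup 3, against 110.3 TPM in pup 1 (100.3 ± 14.1), above 92.4% of protein-coding genes by mean TPM. Scn2b, which is bound to the alpha subunit by a disulfide bridge, stood at 2.83 TPM in pup 3, against 4.45 TPM in pup 1. Scn4b, bound in the same way and known from striatum and cerebellum of older animals, stood at 0.290 TPM in pup 3, against 0.490 TPM in pup 1. Scn3b took 80.1% of the beta sum in pup 3 and 78.9% in pup 1. Its leading transcript, Scn3b-201 of 4150 bases, was the same in both pups, with 52.7% of the gene's TPM in pup 3 and 50.5% in pup 1.

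The calcium channel alpha1 genes lay close together at low levels. The range over the 7 genes detected in both pups ran from 2.52 to 7.07 TPM across both pups. Cacna1h and Cacna1g, which encode low-threshold T-type channels, stood at 4.96 and 4.62 TPM in pup 3, against 6.73 and 4.38 TPM in pup 1. Cacna1a, the P/Q-type channel of presynaptic terminals, stood at 4.20 TPM in pup 3, against 7.07 TPM in pup 1. Cacna1b, the N-type channel of immature terminals, stood at 3.27 TPM in pup 3, against 6.54 TPM in pup 1, and Cacna1e, the R-type channel, at 2.75 TPM in pup 3, against 5.97 TPM in pup 1. The L-type genes of neurons, Cacna1d and Cacna1c, stood at 3.28 and 2.52 TPM in pup 3, against 5.98 and 3.51 TPM in pup 1. Within each pup Cacna1a lay above Cacna1b, Cacna1d and Cacna1e, though over the pups the ranges of these genes overlapped. In pup 3 its level included 1.18 TPM of the non-coding Cacna1a-205 of 249 bases, on 5.2 expected counts. That is more than the lead of Cacna1a over Cacna1b or Cacna1d in pup 3.

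By channel type, the P/Q-, N- and R-type genes took 39.1% of the alpha1 sum in pup 3 and 47.0% in pup 1. The T-type genes took 37.7% in pup 3 and 27.8% in pup 1, and the L-type genes 23.3% in pup 3 and 25.2% in pup 1. The high-voltage presynaptic types thus led in both pups, with the narrower margin in pup 3. Short non-coding entries weighed on both sides. The T-type sum included Cacna1g-213 of 434 bases, at 1.66 TPM on 16.3 expected counts in pup 3, against 0.15 TPM on 1.29 in pup 1. The P/Q-, N- and R-type sum included Cacna1a-205, at 1.18 TPM in pup 3, against 0 TPM in pup 1. Cacna1i, the T-type gene of thalamic reticular neurons, stood at 0.270 TPM in pup 3, against 0.480 TPM in pup 1. Cacna1s, the L-type channel of skeletal muscle, stood at 0.240 TPM in pup 3, against 0.920 TPM in pup 1, and Cacna1f, that of photoreceptors, had 5 counts in each pup.

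Of the 4 ratios taken between alpha1 genes, 3 changed sign with the entries counted. The log2 ratio of Cacna1h over Cacna1g, both T-type, did not: it was 0.10 in pup 3 and 0.61 in pup 1, and positive under every alternative tried. The log2 ratio of Cacna1b over Cacna1a was -0.35 in pup 3 and -0.11 in pup 1, and that of Cacna1e over Cacna1a was -0.59 and -0.24 in the same order. Over full-length coding transcripts alone the means turned to 0.67 and 0.53, so Cacna1b and Cacna1e then stood above Cacna1a. The log2 ratio of Cacna1c over Cacna1d was -0.37 in pup 3 and -0.75 in pup 1, but 2.48 in the mean over full-length transcripts, since full-length entries held 9.42% of the Cacna1d TPM in pup 3 and 3.85% in pup 1. Its leading entry, Cacna1d-206, is a non-coding processed transcript of 1302 bases at 1.39 TPM in pup 3, against 2.83 TPM in pup 1.

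Calcium channel genes hold 6 further pairs of equal-length alternative exons, in Cacna1a, Cacna1b, Cacna1c, Cacna1d (with 2 pairs) and Cacna1e. In Cacna1b the pair lies in the carboxyl-terminal tail that binds other proteins, and the upstream form is known in rodents from nociceptive sensory neurons. The exons are shown because they differ more in sequence than any other pair found. They are chr2:24626823-24626919 upstream and chr2:24625238-24625334 downstream (mm10, minus strand), with 40 of 97 bases different and in capitals.
Cacna1b upstream exon: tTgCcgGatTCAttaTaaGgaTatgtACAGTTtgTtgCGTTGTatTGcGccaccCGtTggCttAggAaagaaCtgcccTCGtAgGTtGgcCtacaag
Cacna1b downstream exon: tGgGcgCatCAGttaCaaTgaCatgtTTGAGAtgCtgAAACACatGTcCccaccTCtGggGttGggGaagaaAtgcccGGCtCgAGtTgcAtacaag
The downstream exon of Cacna1b was held by 5 full-length transcripts with 1.82 TPM in pup 3, against 4.38 TPM in pup 1. The upstream exon, annotated in Cacna1b-210 alone, was listed at 0 TPM in both pups and at 0.18 TPM in pup 3, against 0.17 TPM in pup 1 as a posterior mean. Because no full-length entry holds it, the split describes which entries M21 lists as much as the RNA. Cacna1e was annotated in the same manner, with the downstream exon at 1.86 TPM in pup 3, against 3.51 TPM in pup 1 and the upstream exon listed at 0 in both, again in a short entry alone. In Cacna1a, by contrast, full-length entries held the upstream exon, at 1.41 TPM in pup 3, against 2.16 TPM in pup 1, and the downstream exon was annotated in a non-coding entry alone. In Cacna1c the pair of 104 bases encodes alternative forms of a membrane segment, and the upstream form took 63.4% in pup 3 and 66.9% in pup 1. That share rested on 0.920 and 0.530 TPM in pup 3 and on 1.76 and 0.870 TPM in pup 1, upstream before downstream.

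The intracellular beta subunits, which carry the alpha1 subunit to the membrane, were the most abundant class. Cacnb3 (ENSMUSG00000003352.14, chr15:98630840-98644529, plus strand) led all 40 genes, with 105 TPM in pup 3, against 115 TPM in pup 1 (110.0 ± 6.55). Cacnb1, the beta subunit also used by skeletal muscle, stood at 39.3 TPM in pup 3, against 47.3 TPM in pup 1 (43.3 ± 5.67). Cacnb4, the partner of P/Q-type channels in older brain, stood at 7.30 TPM in pup 3, against 11.3 TPM in pup 1. Cacnb2, the main beta subunit of heart, stood at 1.58 TPM in pup 3, against 3.96 TPM in pup 1, of which full-length coding entries held 4.43% in pup 3 and 2.53% in pup 1. Cacnb3 took 68.6% of the class in pup 3 and 64.7% in pup 1, and Cacnb1 25.6% and 26.7%. The log2 ratio of Cacnb3 over Cacnb4 was 3.83 in pup 3 and 3.33 in pup 1, positive under each alternative tried.

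RefSeq lists a pair of promoters for Cacnb3 on GRCm38.p6, and the transcripts starting at them differed widely, so both are shown, 250 bases before to 50 after each start on the plus strand. The upstream promoter is chr15:98632078-98632377 and the downstream promoter chr15:98634517-98634816. Capitals mark GGGCGG, the GC box known to bind the factor Sp1, or its reverse complement.
Cacnb3 upstream promoter: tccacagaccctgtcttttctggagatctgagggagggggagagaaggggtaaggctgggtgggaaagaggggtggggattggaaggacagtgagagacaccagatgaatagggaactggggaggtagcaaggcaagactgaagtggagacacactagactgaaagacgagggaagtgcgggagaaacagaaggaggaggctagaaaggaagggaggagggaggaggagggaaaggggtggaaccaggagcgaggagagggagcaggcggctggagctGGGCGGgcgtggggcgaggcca
Cacnb3 downstream promoter: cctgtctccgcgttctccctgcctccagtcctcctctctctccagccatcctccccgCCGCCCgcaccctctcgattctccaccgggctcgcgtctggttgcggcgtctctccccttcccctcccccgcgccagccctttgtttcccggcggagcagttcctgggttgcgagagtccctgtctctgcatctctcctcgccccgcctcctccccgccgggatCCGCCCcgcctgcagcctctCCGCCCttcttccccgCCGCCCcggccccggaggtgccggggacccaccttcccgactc
Transcripts that start at the upstream promoter, Cacnb3-202 and Cacnb3-204, held 90.0 TPM in pup 3, against 94.0 TPM in pup 1. The transcript of the downstream promoter, Cacnb3-201, held 3.02 TPM in pup 3, against 4.56 TPM in pup 1. The upstream window held 7 CG dinucleotides and 1 GC box, and the downstream window 29 and 4, so the promoter with more of either carried the lower level. Over the 41 RefSeq promoters found for 30 of the 40 genes, 39.0% held GGGCGG on either strand, against 35.7% of all 32851 promoters of the same length. TATAAA was in 4.88% of them, against 13.6% of all promoters. CAGCACC, the left-hand part of the RE1 element bound by the repressor REST, was in 0 of 41, against 7.14% of all promoters, and its right-hand part GGACAGC in 4.88%, against 6.56%. These matches describe letters in a window and say nothing of binding.

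Alpha2delta subunits are anchored outside the cell, raise channel number at the membrane and promote synapse formation. Cacna2d3 stood at 20.9 TPM in pup 3, against 31.2 TPM in pup 1, and Cacna2d1, a target of gabapentin, at 12.04 TPM in pup 3, against 23.6 TPM in pup 1. Cacna2d3 took 58.4% of the class in pup 3 and 52.6% in pup 1, against 33.6% and 39.8% for Cacna2d1. In expected counts the log2 ratio of Cacna2d1 over Cacna2d3 was -0.27 in pup 3 and 0.20 in pup 1, with a mean of -0.03. In counts, then, which of the pair led differed between the pups. Cacna2d2, the other gabapentin-binding subunit, stood at 2.41 TPM in pup 3, against 4.15 TPM in pup 1. Cacna2d4, known from retina, stood at 0.440 TPM in pup 3, against 0.400 TPM in pup 1. The leading transcript of Cacna2d1 differed between the pups: Cacna2d1-202 of 7311 bases in pup 3 (34.5% of the gene's TPM) and Cacna2d1-203 of 3879 bases in pup 1 (48.0%).

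Of the 8 gamma genes, 6 encode proteins that are best known as auxiliary subunits of AMPA-type glutamate receptors. Cacng4 led, with 35.5 TPM in pup 3, against 47.7 TPM in pup 1 (41.6 ± 8.65), or 45.6% of the gamma sum in pup 3 and 44.4% in pup 1. Cacng3 stood at 13.6 TPM in pup 3, against 23.3 TPM in pup 1, and Cacng5 at 7.01 TPM in pup 3, against 10.0 TPM in pup 1. Cacng2, which encodes stargazin, stood at 5.42 TPM in pup 3, against 8.35 TPM in pup 1, so that Cacng4 exceeded it by a log2 ratio of 2.69 in pup 3 and 2.50 in pup 1. Cacng8 stood at 13.1 TPM in pup 3, against 14.7 TPM in pup 1, of which the entry Cacng8-203 of 535 bases held 73.8% and 76.4%. Full-length entries of Cacng8 held 3.44 TPM in pup 3, against 3.47 TPM in pup 1, below Cacng2, and the mean log2 ratio of Cacng2 over Cacng8 was 0.94 there, against -1.03 over all entries. Cacng7 stood at 1.82 TPM in pup 3, against 2.10 TPM in pup 1.

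Cacng1, the gamma subunit of the skeletal muscle calcium channel, and its relative Cacng6 stood apart from the AMPA receptor group. Cacng1 had 1.06 TPM in pup 3, against 0.900 TPM in pup 1, and Cacng6 had 0.340 TPM in pup 3, against 0.290 TPM in pup 1. They took 1.80% of the gamma sum in pup 3 and 1.11% in pup 1. In TPM both were higher in pup 3 than in pup 1, as were Cacna1g and Cacna2d4. In counts per library total, Cacna1g and Cacna2d4 were lower in pup 3, with ratios of pup 3 over pup 1 of 0.81 (95% exact interval 0.72 to 0.92) and 0.45 (0.23 to 0.85). The count ratios of Cacng1 and Cacng6 were 1.32 (0.78 to 2.27) and 1.35 (0.64 to 2.91), with intervals that span both directions.

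Summed by class, the accessory subunits exceeded the pore-forming ones. Calcium beta genes summed to 154 TPM in pup 3 and 177 in pup 1, and the alpha1 genes they serve to 26.2 TPM in pup 3 and 41.7 in pup 1. The ratio of calcium beta over alpha1 was 5.87 in pup 3 and 4.25 in pup 1, and that of sodium beta over sodium alpha 1.84 in pup 3 and 1.38 in pup 1. The ratio of alpha2delta over alpha1 was 1.37 in pup 3 and 1.42 in pup 1. Sodium alpha genes exceeded calcium alpha1 genes by 2.34 times in pup 3 and 2.43 times in pup 1. Over full-length coding entries alone these ratios were all higher, up to 12.03 in pup 3 and 7.73 in pup 1 for calcium beta over alpha1. RNA ratios of subunits are not ratios of protein.

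**Figure D3:**
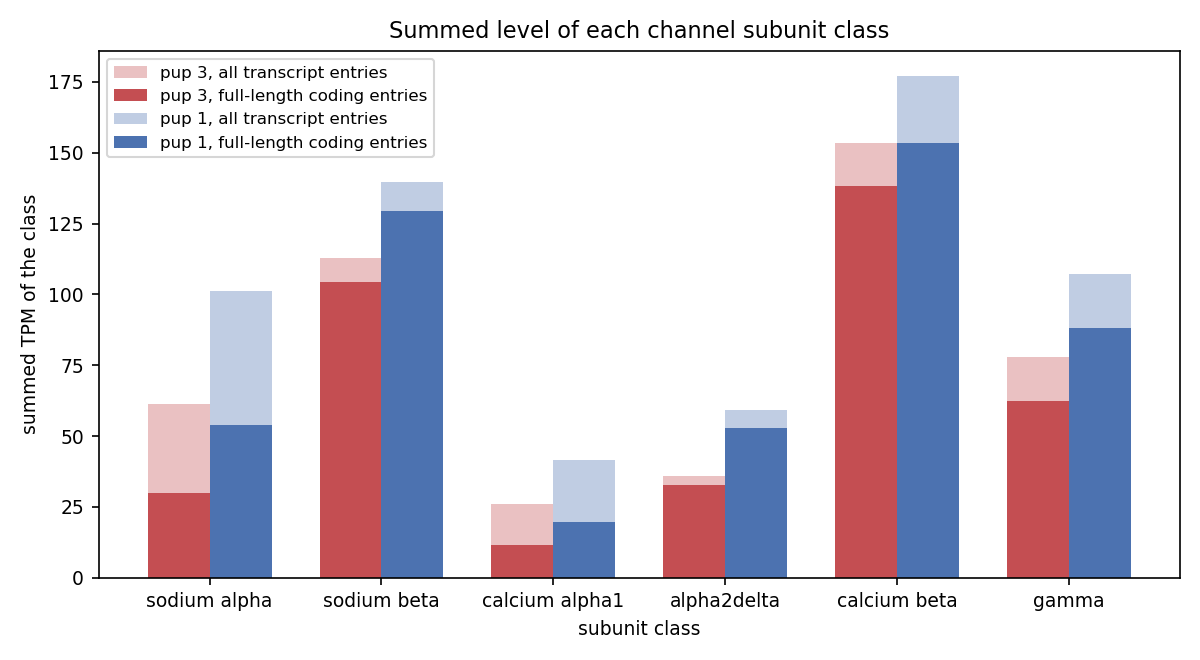
Summed TPM of each subunit class, pup 3 in red left of pup 1 in blue, pale for all transcript entries and dark for full-length coding entries. Full-length entries hold 49.1% and 53.2% of the sodium alpha sum and most of the beta, alpha2delta and gamma sums in both pups.

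Much of the TPM of the long alpha genes lay in short transcript entries, which bears on every level above. An entry was called full-length coding when its coding sequence reached 80% of the gene's longest. Such entries held 49.1% of the sodium alpha sum in pup 3 and 53.2% in pup 1, and 43.9% and 47.6% of the calcium alpha1 sum. In the sodium beta, calcium beta, alpha2delta and gamma classes the share ran from 80.03% to 92.6%. In Scn1a the entry Scn1a-206 of 1690 bases held 4.33 of 6.19 TPM in pup 3 and 7.59 of 10.8 TPM in pup 1, and full-length entries held 19.1% and 21.1%. In Scn8a the entry Scn8a-207 of 587 bases held 4.98 TPM in pup 3, against 4.77 TPM in pup 1 on 71.5 and 60.8 expected counts. Over full-length entries alone, Scn1a stood at 1.18 TPM in pup 3, against 2.28 TPM in pup 1, and Scn8a at 2.30 TPM in pup 3, against 3.84 TPM in pup 1.

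Over the 16 channel genes that reached a TPM of 5 in each pup, the median share of full-length entries was 85.9% in pup 3 and 89.5% in pup 1, against 86.5% and 85.4% over all protein-coding genes at that level. The 16 include no calcium alpha1 gene. Under 50% stood 4 of the 16 channel genes in pup 3 and 3 in pup 1, against 20.2% and 20.6% of all genes. Of the 15 channel genes with several transcripts at that level, 12 had the same leading transcript in both pups. The exceptions were Cacna2d1, Cacng5 and Scn2a. In Scn2a the leading entry was the full-length Scn2a-201 in pup 3 and the short Scn2a-204 in pup 1, each by a small margin. In pup 3, Scn2a-201 stood at 7.83 TPM and the retained intron Scn2a-209 at 7.68, and Scn2a-209 led in posterior mean TPM. In pup 1, Scn2a-204 stood at 11.49 TPM and the full-length Scn2a-202 at 10.99.

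**Figure D4:**
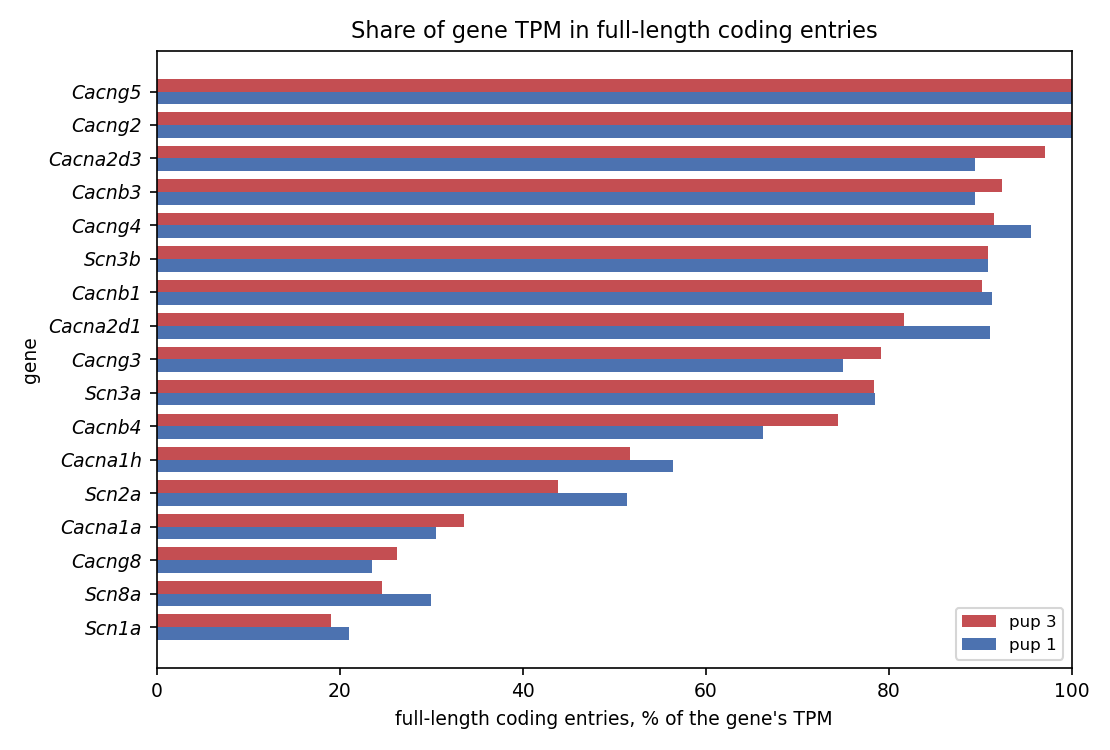
Share of each gene's TPM in full-length coding entries, in percent, for 17 channel genes whose mean TPM reached 5, with pup 3 in red above pup 1 in blue. Scn1a, Scn8a, Cacng8 and Cacna1a lie under 40% in both pups, and the accessory subunits Scn3b, Cacnb1 and Cacnb3 near 90% or above.

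Several channel genes are neighbours in the genome, and 18 of the 40 lie in 7 groups with gaps of at most 300 kb. On chromosome 2, Scn3a and Scn2a form a group of 310 kb at 23.6 and 33.7 TPM in the mean, and Scn1a, Scn9a and Scn7a a group of 514 kb that ranges from 0.05 to 8.51 TPM. On chromosome 11, Cacng1, Cacng4 and Cacng5 lie within 212 kb and range from 0.980 to 41.6 TPM. The channel genes are long, with a median span of 105 kb against 17.3 kb for all protein-coding genes.

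Genes known from other tissues were low, and markers of those tissues were partly present. Of 7 skeletal muscle markers 3 were detected, with a summed level of 19.7 TPM in pup 3, against 28.5 TPM in pup 1, mostly Acta1 at 13.6 TPM in pup 3, against 16.9 TPM in pup 1. The muscle creatine kinase Ckm stood at 0.0800 TPM in pup 3, against 0.07 TPM in pup 1, and 0 of the 7 were at 0 in both pups. Beside them, Cacna1s, Scn4a and Cacng1 stood at 0.240, 0.0100 and 1.06 TPM in pup 3, against 0.920, 0.05 and 0.900 TPM in pup 1. Of 5 heart markers 2 were detected, with sums of 11.3 TPM in pup 3, against 11.6 TPM in pup 1. Most of either sum was Myh7, at 7.65 TPM in pup 3, against 7.28 TPM in pup 1. Full-length coding entries of Myh7 held 0.860 TPM in pup 3, against 1.40 TPM in pup 1, so most of its level lay in shorter entries. Of 6 sensory ganglion markers 3 were detected, with sums of 6.08 TPM in pup 3, against 8.02 TPM in pup 1 and Mrgprd at 0 in both pups, beside Scn9a, Scn10a and Scn11a. Of 4 retina markers 0 were detected, with sums of 0.480 TPM in pup 3, against 0.310 TPM in pup 1, beside Cacna1f and Cacna2d4. The part of such tissue in these levels was not tested.

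Between the pups, the channel genes were mostly lower in pup 3. Among the 16 genes that reached a TPM of 5 in each pup, the log2 ratio of TPM + 1 in pup 3 over pup 1 ranged from -0.91 to -0.12 with a median of -0.50, and all 16 were negative. Over all protein-coding genes at that level the median was -0.22 and 79.9% were negative. A further 6 channel genes, Scn9a, Cacna1a, Cacna1b, Cacna1d, Cacna1e and Cacna1h, passed that level only in pup 1 and so had to be lower in pup 3. With them, 22 of 22 were lower in pup 3, against 81% of the protein-coding genes that reached that level in either pup. Of the 16 genes, 0 passed 2-fold. Scn9a alone of the 22 did, with a log2 ratio of -1.19, against 1.76% of all genes past 2-fold in that direction, and it is among the 6 that entered through pup 1. In the other direction 0 channel genes passed 2-fold, against 0.0467% of all genes.

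Counts gave the same direction for Scn9a, with a ratio of 0.45 of pup 3 over pup 1 (95% exact interval 0.39 to 0.51, counting error only). Among the 16 genes that passed in both pups, the median log2 ratio was -0.69 for 4 sodium alpha genes, -0.73 for 2 alpha2delta genes, -0.46 for 5 gamma genes, -0.31 for 2 sodium beta genes and -0.26 for 3 calcium beta genes. No calcium alpha1 gene is among them. Cacna2d1 had the lowest ratio of the 16, at -0.91. Cacnb3 had the ratio nearest to 0 in TPM, at -0.12, but its count ratio was 1.03 (1.00 to 1.07), and with TMM scaling its log2 ratio was 0.18 and that of Scn3b was 0.00.

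The difference moved with transcript length over the 10711 protein-coding genes that reached a TPM of 5 in either pup. The median log2 ratio of these genes was 0.01 for leading transcripts under 1000 bases, -0.11 from 1000 to 1999, -0.26 from 2000 to 3999, -0.39 from 4000 to 5999 and -0.53 at 6000 or more. Of the 16 genes that passed in both pups, 14 lay below the median of their own length class, with a median difference of -0.18. The class medians rest on the wider filter, since a gene passing in either pup entered them. Cacna2d1 (-0.65), Scn1a (-0.61) and Cacng3 (-0.48) lay furthest below it, and Cacnb3 and Scn3b lay above it by 0.14 and 0.11. The class was set by the entry with the highest mean TPM, for Scn1a and Scn8a a short entry of 1690 and 587 bases. In pup 3, Scn8a-204 of 11436 bases held 691 of the 882 Scn8a counts, and Scn1a-203 of 8386 bases 249 of 557. Against the median at 6000 bases or more, Scn8a, with a log2 ratio of -0.42, would lie above and Scn1a, at -0.72, below. In CPM, with no length correction, the median over the same 10711 genes was -0.09 (62.9% lower in pup 3), and with TMM factors in addition 0.04 (45.2% lower). With TMM, 12 of the 16 channel genes were lower in pup 3, with a median of -0.21. Markers of thalamus summed to 124 TPM in pup 3, against 318 TPM in pup 1, while the forebrain list summed to 536 and 477 TPM. The neuron list summed to 3165 TPM in pup 3, against 3699 TPM in pup 1. Tubb3 and Stmn2, which held most of the neuron sum, had log2 ratios of -0.10 and -0.22. Those of Snap25, Syt1 and Map2, the other neuron markers, were -0.75, -0.60 and -0.60. The part of transcript length, of thalamus and of neurons in the difference was not tested.

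**Figure D5:**
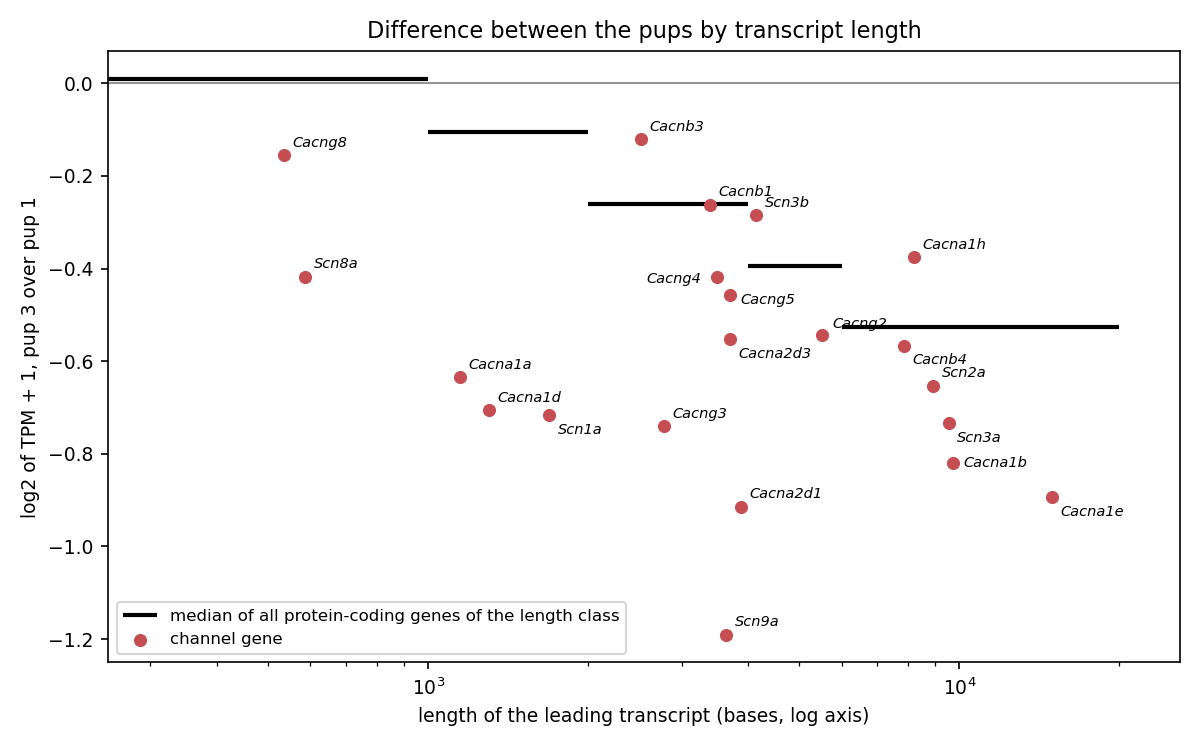
Log2 ratio of TPM + 1 in pup 3 over pup 1 for 21 channel genes that reached a TPM of 5 in either pup, against the length of the leading transcript in bases on a log axis, with bars at the median of all protein-coding genes per length class. All 21 points lie below 0 and 18 below the bar of their class, with 6 genes, Scn9a and the 5 calcium alpha1 genes, included through pup 1 alone.

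Genes that bind or place these channels were present throughout. All 14 listed partners of sodium channels were detected in both pups, with a median mean TPM of 66.1. Fgf13, an intracellular factor that binds the tail of the alpha subunit, stood at 122 TPM in pup 3, against 195 TPM in pup 1, and the ubiquitin ligase Nedd4 at 143 TPM in pup 3, against 230 TPM in pup 1. Ank3, which encodes the ankyrin that gathers sodium channels at the axon initial segment, stood at 26.3 TPM in pup 3, against 46.9 TPM in pup 1.

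All 12 listed partners of calcium channels were also detected, with a median mean TPM of 11.9. The release proteins Snap25 and Stx1a stood at 136 and 114 TPM in pup 3, against 230 and 141 TPM in pup 1. Rem2, a small GTP-binding protein that binds the beta subunit, stood at 17.9 TPM in pup 3, against 23.1 TPM in pup 1.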

How the data were processed

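The deposited tables give, per library, estimated counts (expected counts, in which the authors split reads that map to several places), TPM and FPKM per gene and transcript, and for each transcript the percent it takes of the TPM of its gene, as the authors deposited it. Per the README text deposited with each library, the build was mm10 with annotation M21 or M4. Neither aligner nor quantifier is named in them (not given in the sources used here), and the column names are those of RSEM. Whether counting used the strand is not stated, so reads of overlapping antisense genes cannot be told apart.

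M21 point estimates of TPM were used, with M4 and posterior mean TPM as alternatives. Members, lists and tests were chosen with earlier results of these data known. Detection means a TPM of at least 1. Ratios within a library used a pseudocount of 0.1 TPM and differences between pups 1 TPM, coded pup 3 over pup 1, with a fold of 2 as the limit. TMM (edgeR 4.0.16) and DESeq2 1.42.0 size factors on expected counts rounded to whole numbers were alternatives, and both scalings were tested on simulated data. Paired exons were pairs of equal length, at least 50 bases, that share flanking exons and never occur in 1 transcript, read from M21 transcripts. Promoters of RefSeq (GRCm38.p6) were matched by symbol. RNA was extracted with the mirVana kit, per the labels. Protein sequences were not used here. Every member enters the counts and sums, and some items, genes and sequences among them, are not reported here. Members whose mean TPM reached 5 have both values, and up to 4 genes per partner or marker list are named at that level, plus those needed to state a level under 1. Intervals cover counting error only, since each side is 1 library. The tables use no molecular identifiers, so copied reads are counted as separate and the intervals may be too narrow even for that. Python 3.11.15 with pandas 2.3.3 and R 4.3.3 were used.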

Additional observations from a re-analysis of the deposited data

How the results depend on the processing

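With 1 group and 2 libraries, every value is a description. No paired analysis was possible because there is no second group to pair with. The number of genes detected stayed between 25 and 29 under each alternative, and between 28 and 29 with either pup alone. Shares of class sums in expected counts, with no length correction, were 78.8% for Scn2a and Scn3a, 15.5% for Scn1a and Scn8a, 1.36% for the 5 low alpha genes, 88.7% for Scn3b, 22.7% for L-type, 49.0% for P/Q-, N- and R-type, 46.3% for Cacna2d3, 45.3% for Cacna2d1, 57.9% for Cacnb3, 29.5% for Cacnb1, 51.6% for Cacng4 and 0.696% for Cacng1 with Cacng6. In M4 they were 72.9% for Scn2a and Scn3a, 21.4% for Scn1a and Scn8a, 1.10% for the low alpha genes, 17.0% for L-type, 27.7% for Cacnb1 and 50.3% for Cacng4. In posterior mean TPM they were 69.0% for Scn2a and Scn3a and 1.61% for the low alpha genes. Over full-length coding transcripts alone, chosen after seeing the data, they were 83.3%, 11.5% and 1.85% for these 3 alpha groups, 78.0% for Scn3b, 15.8% for L-type and 51.9% for Cacng4. Ratios whose mean changed sign in expected counts were Scn3a/Scn2a (log2 0.0094), Cacna1b/Cacna1a (0.78), Cacna1e/Cacna1a (1.39), Cacna1c/Cacna1d (0.64) and Cacng2/Cacng8 (1.75). For Scn3a/Scn2a the sign changed in pup 3 alone, with 0.05 in pup 3 and -0.04 in pup 1. In M4, Cacna1c/Cacna1d (0.86) and Cacng2/Cacng8 (0.94) changed sign. Over full-length transcripts Scn3a/Scn2a (0.20), Cacna1b/Cacna1a (0.67), Cacna1e/Cacna1a (0.53), Cacna1c/Cacna1d (2.48) and Cacng2/Cacng8 (0.94) did so, by leaving out the shorter entries. Beyond the missing length correction in counts and the entries left out, the cause was not tested. Over the 22 genes compared between the pups, of which 6 entered through pup 1 alone, the median log2 ratio was -0.38 with TMM, -0.37 with DESeq2 size factors, -0.40 over all 40 genes with no filter (36 lower in pup 3, against 63.5% of all protein-coding genes), -0.32 with the all-gene median removed and -0.22 with the length-class median removed, the last also chosen after seeing the data. Genes over 2-fold lower in pup 3 numbered 2 with a pseudocount of 0.1 (Cacna1e and Scn9a), 2 in CPM (Cacna1b and Scn9a), 2 in M4 (Cacna2d1 and Scn9a), and 0 with either median removed. Genes under 10 counts, such as Scn4a and Cacna1f, are limited by depth.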

Other observations

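Genes of the sodium leak channel, a relative of these channels that sets the resting potential, were low but present. Of 5 listed genes 4 were matched by symbol and all 4 were detected in both pups. Nalcn, the pore-forming subunit, stood at 4.07 TPM in pup 3, against 8.01 TPM in pup 1, close to the calcium channel alpha1 genes. Fam155a, which encodes its extracellular partner, stood at 13.3 TPM in pup 3, against 24.0 TPM in pup 1.

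Splicing factors known to act on channel exons in neurons were detected in 9 of 9 cases. Rbfox1 stood at 169 TPM in pup 3, against 177 TPM in pup 1, Ptbp2 at 146 TPM in pup 3, against 153 TPM in pup 1, and Rbfox2 at 83.5 TPM in pup 3, against 111 TPM in pup 1. Rbfox3 stood at 57.8 TPM in pup 3, against 68.0 TPM in pup 1.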
